A study of Mus musculus with 21 samples.

Results

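Histones are the proteins around which DNA is wound, and the mouse genome codes for them with many small genes. All probes with a gene name that began with Hist1h to Hist4h, H2af, H3f3 or H1f were taken from the arrays, and the brightest probe over all arrays stood for each gene. This gave 64 histone genes with 78 probes, out of 30222 genes with 39429 probes. Of the 64 genes, 15 are variant or linker histone genes of the H2af, H3f3 and H1f families. The others carry Hist names and are counted here as replication-linked by name alone. This class thus takes in genes known mainly from germ cells (Hist1h1t, Hist1h2ba, Hist1h2aa) and genes with pseudogene names (Hist3h2bb-ps, Hist2h3c2-ps). The rule used names and probe brightness over all arrays, but no measured difference between groups. It was set with earlier results of these data known. Of the 64 genes, 60 passed the filter on dim probes (marked above background by the scanner software on 4 or more of the 21 arrays) and were tested, 46 replication-linked and 14 variant. H2afb1, Hist1h1d, Hist1h2bq and Hist2h2ab were above background on at most 1 array each and were not tested.

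The arrays measured RNA of liver tumours and livers of C57BL/6J mice in 4 groups. KO tumours (6 tumours of 5 mice) came from untreated Trp53 ko mice and were labelled HCC/CCC, that is hepatocellular and cholangiocellular carcinoma. DEN tumours (7 tumours of 5 mice) were labelled HCC and came from Trp53 wt mice that received N-nitrosodiethylamine (DEN), a liver carcinogen, by intraperitoneal injection of 10 µg per g body weight at day 15. KO livers (4 mice) and WT livers (4 mice) came from Trp53 ko and Trp53 wt mice without treatment. The sex and age of the mice, the deleted exons of Trp53 and the cells that carried the deletion are not stated in the sources used here. Tumours of the same mouse were averaged, so that 18 mice entered each fit. Levels are log2 signals minus the 75th percentile of the array, and differences are on the same log2 scale. Levels are compared between groups probe by probe, since probes differ in brightness, and the sole contrast of probes is the within-array difference of Hist2h2aa1 and Hist2h2aa2.

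The replication-linked genes lie in clusters and are switched on in S phase, when a cell copies its DNA and needs new H1, H2A, H2B, H3 and H4. Their mRNAs carry no poly(A) tail and end instead in a short hairpin, the stem-loop, which is bound by the protein SLBP and governs processing, translation and decay. Variant genes such as H2afz or H3f3b stand alone, make polyadenylated mRNA throughout the cell cycle, and serve chromatin outside of replication. The labelling kit used here primes RNA at poly(A) tails, so the share of a replication-linked mRNA that is labelled may depend on its 3′ end. The part of this in the values below was not tested.

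The sequences of the probes decide which genes can be told apart, since many histone genes are nearly identical. A group of 8 probes, all near the end of an H2A coding sequence, were linked by shared runs of at least 18 bases. The 60-base probes are shown because the mouse-by-mouse pattern of the H2A genes rests on them. The first line is the Hist1h2ah probe, and capitals in the other lines mark the longest run shared with it, from 42 bases in Hist2h2ac and 41 in Hist1h2af to 29 in Hist2h2aa2 and H2afj. Positions are those of the array files in build mm9. The Hist1h2ag probe has no single interval there and lies on chromosome 13.
Hist1h2ah, chr13:22127035-22127094, minus strand: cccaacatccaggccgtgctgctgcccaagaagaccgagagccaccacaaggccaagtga
Hist2h2ac, chr3:96024378-96024437, minus strand: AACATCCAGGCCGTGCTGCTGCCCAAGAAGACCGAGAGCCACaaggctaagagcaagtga
Hist1h2af, chr13:23626113-23626172, plus strand: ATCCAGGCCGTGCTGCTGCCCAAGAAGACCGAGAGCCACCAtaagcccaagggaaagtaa
Hist1h2ag: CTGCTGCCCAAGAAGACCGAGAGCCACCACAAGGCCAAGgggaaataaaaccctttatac
Hist1h2ak, chr13:21845304-21845363, minus strand: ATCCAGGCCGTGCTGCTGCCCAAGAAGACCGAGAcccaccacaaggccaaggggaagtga
Hist1h2an, chr13:21878695-21878754, minus strand: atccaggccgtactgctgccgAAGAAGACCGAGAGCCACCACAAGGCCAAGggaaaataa
Hist2h2aa2, chr3:96049837-96049896, plus strand: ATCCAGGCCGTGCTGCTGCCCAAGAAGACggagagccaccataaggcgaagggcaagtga
H2afj, chr6:136757181-136757240, plus strand: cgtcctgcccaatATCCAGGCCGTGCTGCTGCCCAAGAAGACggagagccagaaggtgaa

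Other probes reach the stem-loop itself. A hairpin of 16 bases (a stem of 6 bases that begins with GG, and a loop of 4 bases that begins with T followed by pyrimidines) was found in 6 of the 64 histone probes (9.38%), against 7 of 39429 probes on the array (0.0178%). In 5 of them the probe ends 3 to 6 bases after the hairpin, close to where the mature mRNA ends. In Hist2h2aa1 the probe goes on for 38 bases beyond it, over sequence that a normally processed histone mRNA lacks. The stretches around the hairpin are shown because this position sets Hist2h2aa1 apart from the other H2A probes. Capitals mark the hairpin. The probes of Hist1h3a, Hist1h3i, Hist2h2aa1 and Hist2h2bb also share runs of at least 18 bases, as do those of Hist1h3c with Hist1h3f and of Hist1h4d with Hist1h4j. Those genes may share signal.
Hist2h2aa1: aaaaGGCTCTTTTCAGAGCCacccactgaa
Hist1h4m: taaaGGCCCTTTTCAGGGCCatccaa
Hist1h3g: taaaGGCTCTTCTTAGAGCCaccca
Hist1h3i: aaaaGGCTCTTTTCAGAGCCccctc
Hist1h3a: caaaGGCTCTTTTCAGAGCCaca
Hist2h2bb: aaaaGGCTCTTTTCAGAGCCacttta

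The promoters of the histone genes differ between classes. RefSeq promoter windows (build GRCm38.p6, 250 bases before to 50 after the start) were found for 55 of the genes, with 56 windows, and were searched on both strands. The CCAAT box (letters CCAAT), bound by the factor NF-Y, was present in 45 of 56 windows (80.4%), against 37.4% of 32851 windows of all genes. The TATA box (TATAAA) was present in 27 (48.2%), against 13.6% of all windows. The octamer (ATTTGCAT), which the factor Pou2f1 (OCT1) binds, was present in 14 (25%), against 1.74%. It lay in 7 of 14 H2A and 6 of 10 H2B windows and in no window of a replication-linked H1, H3 or H4 gene. An E2F-like motif (TTTGGCGC) was in none of the 56 windows and in 0.514% of all windows, which says only that these letters are not there. The CCAAT box was in every window of the replication-linked H1, H2A, H2B and H3 classes, but in 2 of 8 H4 windows. H2A and H2B genes often share a promoter between them. The windows of Hist1h2bg and Hist1h2ae had 279 bases in common, those of Hist1h2an and Hist1h2bp 261, and those of Hist1h2ba and Hist1h2aa 220.

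Stretches of 120 bases upstream of 5 genes are shown because these genes carry the differences described below. Capitals mark the letters searched for, on either strand. Hist1h1b and H3f3b were among the genes that rose in KO tumours, and Hist1h2bm and Hist2h2aa1 among those that fell there. Hist1h1c was among those that rose in DEN tumours.
Hist1h1b (RefSeq H1f5), chr13:21780626-21780745, minus strand: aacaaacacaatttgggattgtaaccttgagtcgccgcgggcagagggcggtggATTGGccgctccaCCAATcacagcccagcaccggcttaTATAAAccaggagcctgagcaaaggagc
Hist1h2bm (RefSeq H2bc14), chr13:21721924-21722043, plus strand: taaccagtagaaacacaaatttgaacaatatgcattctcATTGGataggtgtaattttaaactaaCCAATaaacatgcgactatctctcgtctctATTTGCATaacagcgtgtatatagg
Hist2h2aa1 (RefSeq H2ac18), chr3:96245377-96245496, plus strand: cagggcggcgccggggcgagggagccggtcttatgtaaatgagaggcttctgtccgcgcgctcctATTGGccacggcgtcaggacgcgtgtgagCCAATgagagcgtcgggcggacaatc
Hist1h1c (RefSeq H1f2), chr13:23738687-23738806, plus strand: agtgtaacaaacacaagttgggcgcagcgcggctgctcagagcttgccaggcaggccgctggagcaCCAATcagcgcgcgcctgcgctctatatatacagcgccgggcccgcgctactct
H3f3b (RefSeq H3f3b), chr11:116024505-116024624, minus strand: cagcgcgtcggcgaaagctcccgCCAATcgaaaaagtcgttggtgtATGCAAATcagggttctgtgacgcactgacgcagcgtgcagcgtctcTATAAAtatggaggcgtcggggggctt

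Several facts of the arrays touch every value. The arrays filled 6 slides, read on 4 scan days, and each slide held 1 group. The KO livers lay on 1 slide, and the WT livers on another that was alone on its scan day, so for KO liver against WT liver slide, day and group cannot be told apart. The 75th percentile signal was 2045 to 4258 on the slide of KO tumour mice 4 and 5 and 476 to 1357 on the other slides. The level of Trp53 averaged -4.71 ± 0.47 in KO tumours and -2.65 ± 0.11 in DEN tumours (SD, n = 5 each), and -5.57 ± 0.75 in KO livers against -3.57 ± 0.26 in WT livers (SD, n = 4 each). It was lower in both knockout groups (adjusted p = 2.15e-05 for the tumours and 0.0013 for the livers, limma), and whether its probe lies in the deleted part is not known. Nothing in the labels says how the mice were raised or sampled within a group, so p-values measure the spread between these mice, and the number of arrays limits the precision. In bulk tissue, fewer cells of a type and less RNA per cell cannot be told apart.

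KO tumours were set against KO livers to see which histone genes differ between tumour and liver when Trp53 is deleted in both. Of the 60 genes tested, 14 rose (23.3%) and 9 fell (15%) by limma at an adjusted p under 0.05. Of all 23602 genes tested, 21.5% rose and 29.6% fell, 51.2% in all, so the share that rose was near the background and the share that fell was below it. The median difference was 0.09 over the histone genes and -0.22 over all genes. In 18 of the 60 genes the mice of the groups did not overlap, against 42.7% of all genes. The classes did not move as a body. Of the 11 H2B genes 3 rose and 5 fell (median -0.81), of the 13 H2A genes 3 rose and 1 fell (0.26), and of the 8 H3 genes 3 rose and 1 fell (0.54). Of the 9 H4 genes 1 rose and 1 fell (-0.09), of the 5 replication-linked H1 genes 1 rose and 1 fell (-0.06), and of the 14 variant genes 3 rose and none fell (0.04). With slide as a random block, 4 rose (H3f3b, Hist1h4m, Hist3h2a, Hist3h2ba) and 6 fell (Hist1h2ba, Hist1h2bc, Hist1h2be, Hist1h2bm, Hist1h4i, Hist2h2aa1). Within the scan day that held KO tumour mice 1 to 3 and all KO livers, 16 rose and 8 fell.

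**Figure D1:**
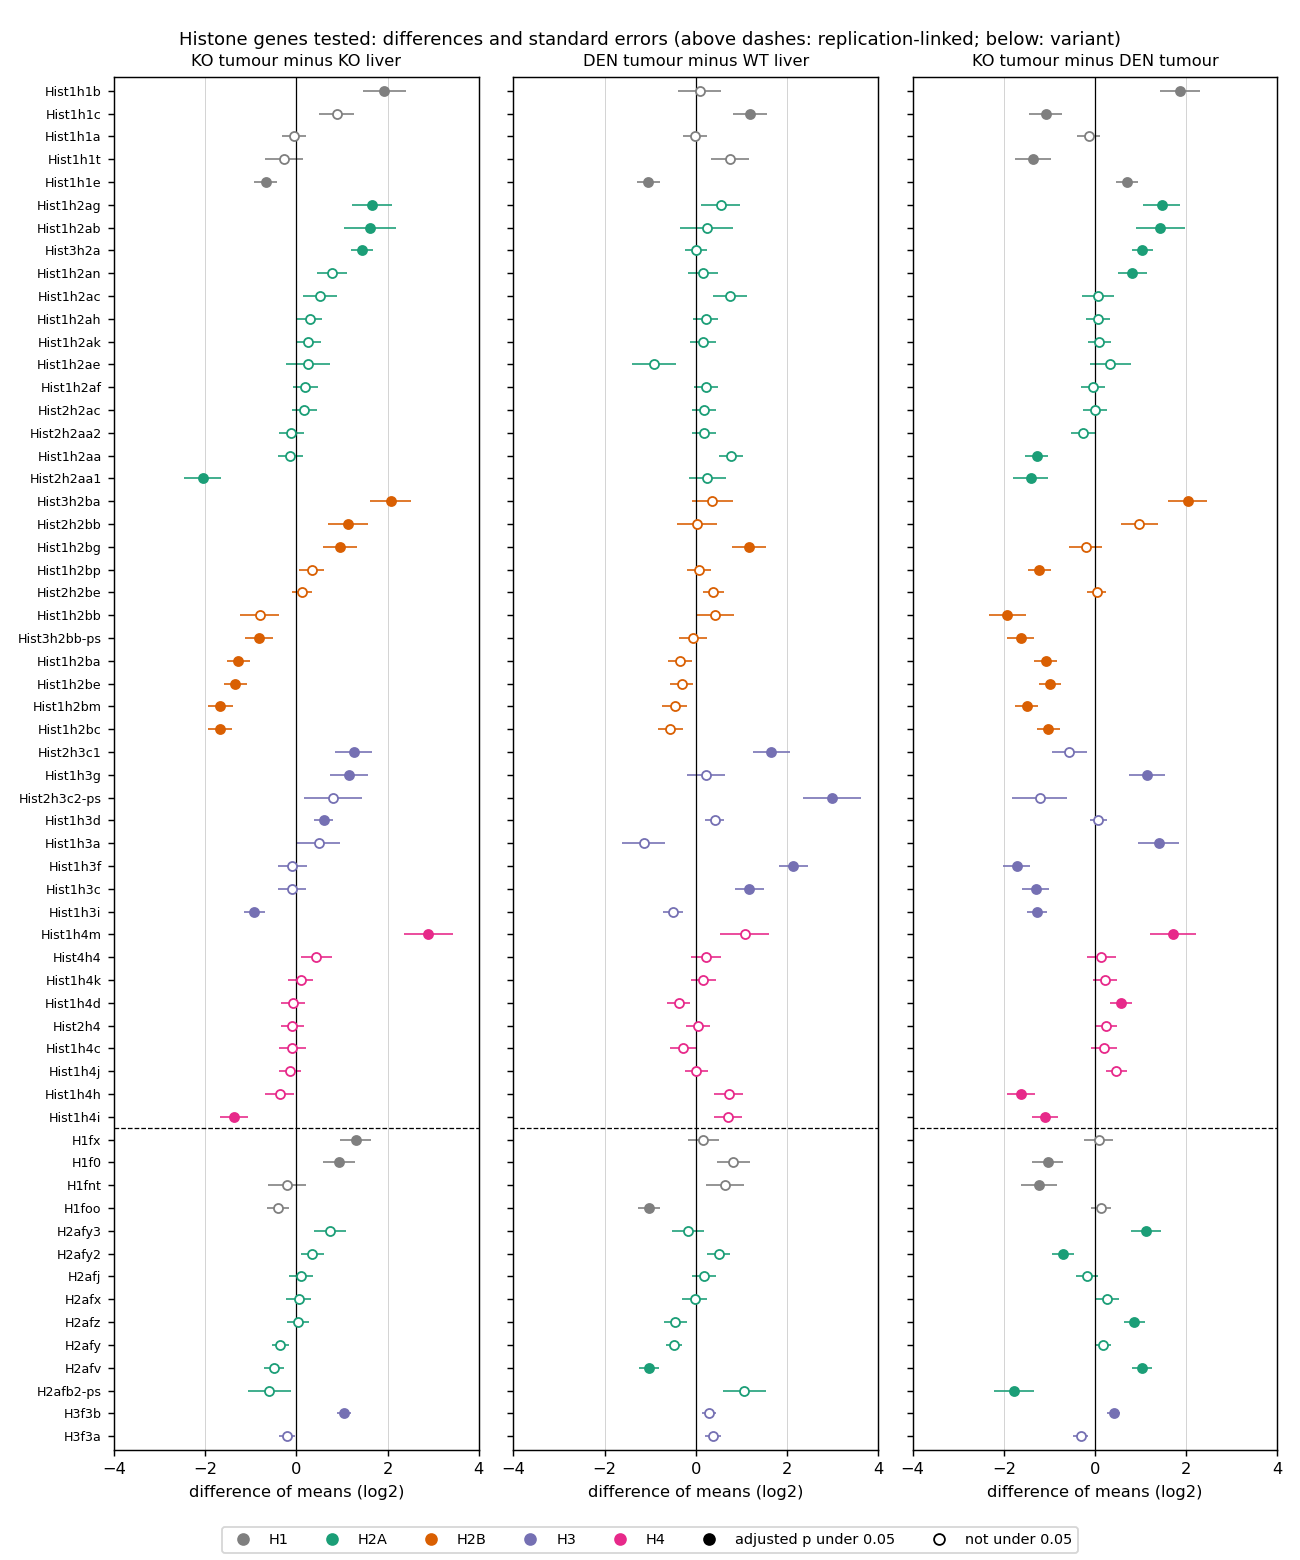
Differences of means on the log2 scale (x axis) with standard errors for the 60 histone genes tested (y axis), in KO tumours minus KO livers, DEN tumours minus WT livers and KO tumours minus DEN tumours, coloured by histone class. Filled points passed an adjusted p of 0.05. The H2B genes spread to both sides in the left panel, and Hist2h3c2-ps has the largest difference in the middle panel, at 2.99.

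Among the genes that rose in KO tumours were an H4, an H2B, a linker and an H2A gene with the highest changes. Hist1h4m, an H4 gene (mm9, chr13:21903960-21904019), read -3.97, -2.81, -3.90, -3.00 and -3.18 in KO tumour mice 1 to 5, against -6.81, -6.49, -5.53 and -6.24 in KO livers. No KO tumour mouse reached down to the livers, and no KO liver array was above background. Hist1h4m was 2.89 higher in KO tumours (SE 0.53, adjusted p = 0.000247), or 7.44-fold by these signals. Such a fold sets the mean of the brighter group against undetected signals of the dimmer group, so it is not a lower bound. On each array of the dimmer group it takes the probe's own signal or the lowest signal above background, whichever is higher. Hist3h2ba, an H2B gene of the chromosome 11 cluster (chr11:58762964-58763023), read -3.55, -3.76, -3.02, -1.34 and -2.93 in KO tumours and -5.01, -5.26, -4.32 and -5.35 in KO livers. The groups did not overlap, and KO tumour mouse 4 was highest. The gene read 4.19-fold higher in KO tumours, with no KO liver array above background (adjusted p = 0.00104).

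Hist1h1b, a linker histone gene (chr13:21871923-21871982) whose promoter stretch printed above holds a pair of CCAAT boxes and a TATA box, was above background on every array. It read -0.61, -0.81, -2.26, -1.89 and -2.17 in KO tumours, against -3.57, -3.27, -3.55 and -3.52 in KO livers. KO tumour mice 1 and 2 stood above the other KO tumours, and all 5 stood above the livers. The difference was 1.93 (SE 0.47, adjusted p = 0.00235, and 0.0957 with slide as a block). Hist1h2ag, one of the 8 linked H2A probes, read 5.14, 4.96, 4.04, 3.52 and 3.64 in KO tumours and 2.48, 2.62, 2.61 and 2.68 in KO livers. The groups did not overlap. Hist1h2ag was 1.66 higher in KO tumours (SE 0.43, adjusted p = 0.00416, and 0.0887 with slide as a block). Which gene the probe reads is uncertain: the array files give it an interval far longer than the probe, on the plus strand, whereas RefSeq places the gene of that name on the minus strand, and 27 of its bases are shared with a probe for an unnamed transcript.

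Of the 9 genes that fell, 5 were of the H2B class, among them Hist3h2bb-ps, a pseudogene by its name. Hist2h2aa1, an H2A gene (chr3:96049949-96050008) with the probe that runs past the stem-loop, read 3.41, 3.18, 3.08, 3.68 and 3.07 in KO tumours, against 5.15, 5.26, 5.49 and 5.48 in KO livers. The groups lay far apart, and the gene fell by 2.06 in KO tumours (difference -2.06, SE 0.40, adjusted p = 0.000428, and 0.0257 with slide as a block). Hist1h2bc, an H2B gene (chr13:23784254-23784313), read 3.53, 3.71, 3.81, 4.12 and 3.89 in KO tumours and 5.18, 5.50, 5.57 and 5.73 in KO livers. No mouse overlapped, and the difference was -1.68 (SE 0.27, adjusted p = 6.15e-05). Hist1h2bm, the H2B gene with the octamer printed above (probe at chr13:21814057-21814116), read 1.26, 0.94, 1.28, 0.38 and 0.35 in KO tumours, against 2.25, 2.48, 2.57 and 2.75 in KO livers. All KO tumours were below all KO livers, and the difference was -1.67 (SE 0.28, adjusted p = 8.76e-05).

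Hist1h4i, an H4 gene, read -0.10, -0.19, 0.06, 1.36 and 0.22 in KO tumours and 1.39, 1.48, 2.19 and 1.53 in KO livers. KO tumour mouse 4 came near to the livers without reaching them, and the difference was -1.38 (SE 0.31, adjusted p = 0.00121). The brightest Hist1h4i probe has no position in the array files and shares the run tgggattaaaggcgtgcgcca, shown because it makes the source of the signal uncertain, with a probe of Galns. The other 2 probes of Hist1h4i differed by 0.74 (adjusted p = 0.103) and 0.36 (adjusted p = 0.418), the opposite way and without a call. Hist1h2be fell by 1.34 (difference -1.34, adjusted p = 0.000295) and Hist1h2ba, known as a testis H2B gene, by 1.27 (difference -1.27, adjusted p = 0.000641). Hist1h2ba was above background on every array of each group.

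**Figure D2:**
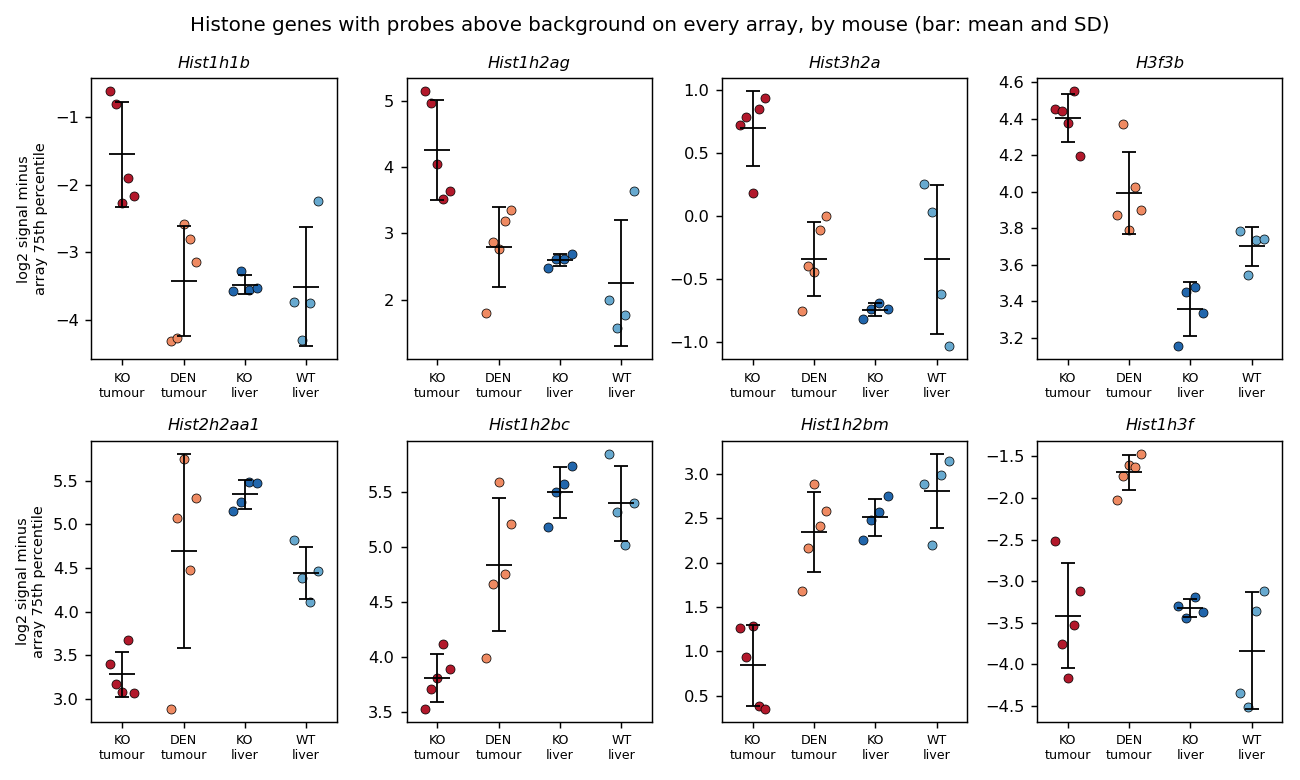
Log2 signal minus the 75th percentile of the array (y axis) of 8 histone genes in each mouse (points), by group (x axis), with mean and SD (bars). In the upper row KO tumours stand above KO livers, and in Hist2h2aa1, Hist1h2bc and Hist1h2bm below them, while Hist1h3f is high in DEN tumours alone, at -2.03 to -1.47.

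The remaining called genes were outside the 4 highest and 4 lowest. Hist2h3c1, an H3 gene, rose by 1.25 (adjusted p = 0.0158) and Hist1h2ab, an H2A gene, by 1.62 (adjusted p = 0.0271). In Hist1h2ab, KO tumour mice 1 and 2 stood at -0.20 and -0.45 and mice 4 and 5 at -3.05 and -2.90, next to the KO livers at -3.85 to -3.00. Neither call held with another background correction (normexp) and quantile scaling of the arrays (0.46 for Hist2h3c1, adjusted p = 0.125, and 0.82 for Hist1h2ab, adjusted p = 0.0652). Hist1h3d rose by 0.59 (adjusted p = 0.0219). Never above background in KO livers were Hist1h2bg, Hist2h2bb, Hist1h3g and the linker gene H1fx. By the fold described above, Hist1h2bg read 1.90-fold higher in KO tumours (above background on 4 of 6 arrays there) and Hist2h2bb 2.18-fold (3 of 6). Hist1h3g read 2.22-fold higher (5 of 6) and H1fx 2.46-fold (4 of 6). Hist1h1e, a linker gene, fell by 0.67 (difference -0.67, adjusted p = 0.0357). Hist3h2bb-ps and Hist1h3i were also called lower, although no KO liver array was above background for either, so they give no measured fold. In KO tumours Hist1h3i was above background on 4 of 6 arrays and Hist3h2bb-ps on 1 of 6, so detection ran opposite to these calls. Counts of genes that rose depended on single livers, with 8 when KO liver mouse 1 was left out and 9 without KO liver mouse 4, against 14. Scaling counted too. With normexp background and quantile scaling, 23 rose and 8 fell, and the median over all genes was then -0.02. Differences of several named genes were smaller with this scaling, at 0.75 for Hist1h4m, 0.70 for Hist3h2ba, 0.98 for Hist1h1b, -1.24 for Hist2h2aa1 and -0.80 for Hist1h2bc, all still called (adjusted p = 0.00153 to 0.015).

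The 8 linked H2A probes varied widely between the KO tumour mice. Each of them was highest in KO tumour mouse 1, next in mouse 2, next in mouse 3, and lowest in mice 4 and 5, the mice of the brightest slide. Hist1h2ah, for example, read 6.01, 5.59, 5.09, 4.38 and 4.42 in KO tumours, against 4.59, 4.80, 4.89 and 4.96 in KO livers. It read 4.96, 5.06, 4.98, 4.99 and 5.16 in DEN tumours and 4.97, 4.52, 4.63 and 5.11 in WT livers. The SD of the Hist1h2ah level was 0.72 in KO tumours, 0.08 in DEN tumours, 0.16 in KO livers and 0.28 in WT livers. The difference between KO tumours and KO livers was 0.29 (SE 0.28, adjusted p = 0.407). Without KO tumour mice 4 and 5 it was 0.75 (adjusted p = 0.00689), and with normexp and quantile scaling 1.30 (adjusted p = 0.00158). Of the 8 probes, 1 was called higher over all mice, 7 without the brightest slide and 8 with quantile scaling. Since the probes share sequence, they are not 8 separate observations. The other probe of H2afj, which lies outside the shared sequence (chr6:136758433-136758492), was 1.46 higher in KO tumours than KO livers (adjusted p = 0.000166). The brightest H2afj probe read 6.20, 5.76, 5.26, 4.69 and 4.73 in KO tumours, against 5.07, 5.20, 5.29 and 5.37 in KO livers, and differed by 0.10 (adjusted p = 0.778). The other Hist1h2ak probe (chr13:21845637-21845696) was 1.14 higher in KO tumours than KO livers (adjusted p = 0.00847), against 0.26 for the brightest (adjusted p = 0.445). Values of further probes of a gene come from a fit over all probes.

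Hist2h2aa1 and Hist2h2aa2 are H2A genes on chromosome 3 whose probes lie next to each other in the array files, the Hist2h2aa2 probe near the coding end and the Hist2h2aa1 probe beyond the stem-loop. By these positions both probes could read the same transcript. Hist2h2aa2 read 5.93, 5.66, 4.96, 4.41 and 4.43 in KO tumours, against 5.0, 5.13, 5.30 and 5.34 in KO livers. These groups overlapped (difference -0.12, adjusted p = 0.743). The difference of the Hist2h2aa1 probe from the Hist2h2aa2 probe within an array was -1.79 ± 0.76 in KO tumours and 0.15 ± 0.02 in KO livers (SD, n = 5 and 4). It was -0.64 ± 1.10 in DEN tumours and -0.71 ± 0.16 in WT livers (SD, n = 5 and 4). No KO tumour lay in the range of the KO livers, and the DEN tumours spanned -2.47 to 0.38. This measure was chosen after the values were seen. In two-sided exact permutation tests over mice it gave p = 0.0159 for KO tumours against KO livers, the smallest that 5 against 4 mice allow, and none of the 4 comparisons between groups passed after adjustment over them (adjusted p = 0.0572 for KO tumours against KO livers).

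**Figure D3:**
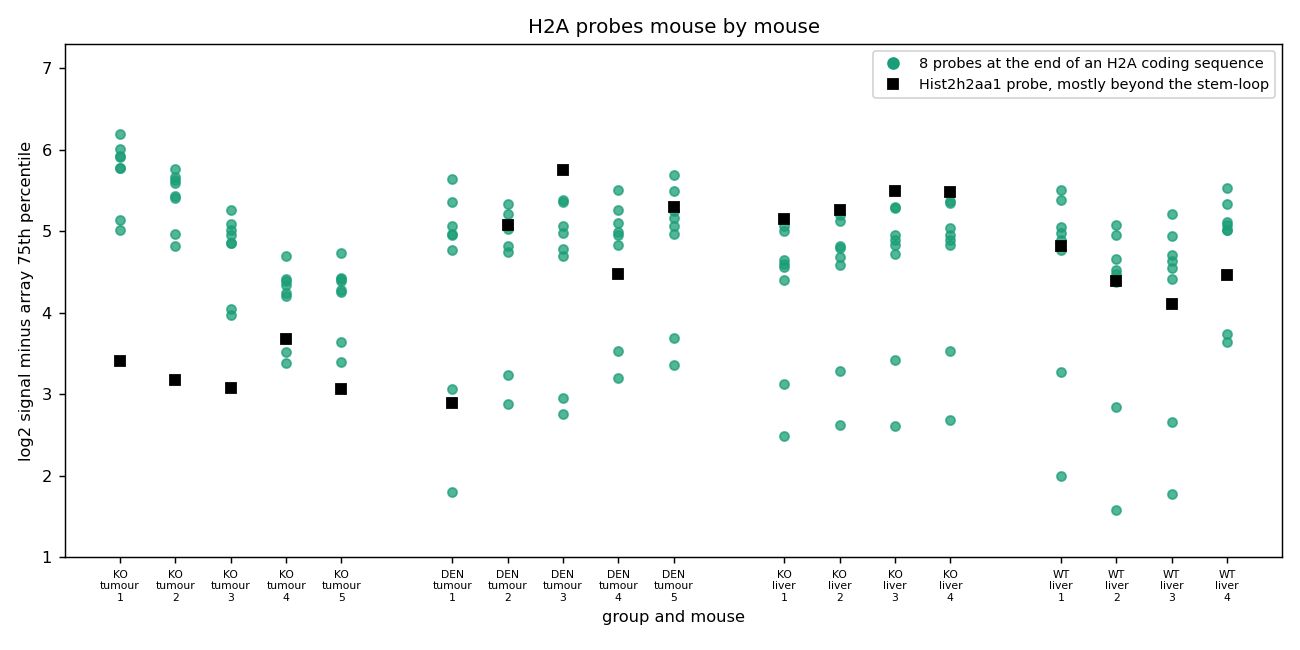
Log2 signal minus the 75th percentile of the array (y axis) in each mouse (x axis) for the 8 linked H2A probes (circles) and for the Hist2h2aa1 probe that lies mostly beyond the stem-loop (squares). The circles of KO tumour mice 1 and 2 stand above those of mice 4 and 5, and the squares of all KO tumours lie at 3.07 to 3.68, below those of the KO livers at 5.15 to 5.49.

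Of the variant genes, H3f3b, H1f0 and H1fx rose in KO tumours against KO livers. H3f3b, which with H3f3a codes for the variant H3 that is loaded outside of replication, read 4.45, 4.44, 4.38, 4.55 and 4.19 in KO tumours, against 3.15, 3.45, 3.48 and 3.34 in KO livers. The groups did not overlap, and the difference was 1.05 (SE 0.15, adjusted p = 2.58e-05). The other 2 H3f3b probes were 0.86 and 0.80 higher (adjusted p = 0.0053 and 0.0131). H3f3a read 4.38, 4.52, 3.69, 4.44 and 4.30 in KO tumours and 4.50, 4.40, 4.53 and 4.46 in KO livers (difference -0.21, adjusted p = 0.332). KO tumour mouse 3 was low and the groups overlapped. With normexp and quantile scaling the difference of H3f3a was 0.65 (adjusted p = 0.000414), so its direction depended on the scaling.

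H1f0, a linker histone of differentiated cells, read -3.29, -3.81, -2.99, -2.26 and -1.99 in KO tumours, against -3.80, -3.94, -3.20 and -4.28 in KO livers. The groups overlapped and H1f0 rose by 0.94 (SE 0.36, adjusted p = 0.0369). Without KO tumour mice 4 and 5 of the brightest slide the difference was 0.44 (adjusted p = 0.272), with normexp and quantile scaling 0.26 (adjusted p = 0.296), and with slide as a block its adjusted p was 0.2. H1fx, the other variant linker gene that rose, read -4.27, -4.97, -4.57, -5.70 and -5.28 in KO tumours and -6.37, -6.24, -6.14 and -6.29 in KO livers, without overlap. It read -6.13 to -4.59 in DEN tumours and -5.94 to -4.78 in WT livers, so the KO livers were lowest. KO livers also lay below WT livers without overlap, but without a call, for H1f0 (difference -1.15, adjusted p = 0.0678) and H1fx (-1.06, adjusted p = 0.0764). H2afx, which codes for the H2A variant that is phosphorylated at DNA breaks, read 2.40, 2.38, 1.96, 0.98 and 1.35 in KO tumours, against 1.97, 1.59, 1.45 and 2.05 in KO livers. The groups overlapped (difference 0.05, adjusted p = 0.896). H2afx read 1.17 to 1.88 in DEN tumours and 1.26 to 1.83 in WT livers. None of the 8 H2A variants tested was called, with differences of -0.59 to 0.73.

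H2afz and H2afv code for forms of H2A.Z, a variant found at the start sites of genes. H2afz read 5.32, 5.51, 4.69, 4.94 and 4.65 in KO tumours and 3.87, 4.04, 3.73, 4.54 and 4.60 in DEN tumours, against 4.87, 5.0, 4.90 and 5.17 in KO livers and 5.03, 4.85, 4.22 and 4.31 in WT livers. KO tumours lay above DEN tumours without overlap, by 0.86 (SE 0.23, adjusted p = 0.0045, and 0.113 with slide as a block). For H2afz, DEN tumours overlapped with WT livers and were not called against them (difference -0.45, adjusted p = 0.216). H2afv read 5.44, 5.21, 4.99, 5.30 and 4.51 in KO tumours and 4.31, 4.01, 3.48, 4.49 and 4.00 in DEN tumours, against 5.39, 5.53, 5.66 and 5.75 in KO livers and 5.35, 5.26, 4.84 and 4.87 in WT livers. DEN tumours were the lowest group of H2afv and overlapped with none of the others. H2afv fell by 1.02 in DEN tumours against WT livers (difference -1.02, SE 0.23, adjusted p = 0.00406) and was 1.03 higher in KO than in DEN tumours (SE 0.21, adjusted p = 0.000688). Against KO livers it differed by -0.49 in KO tumours (adjusted p = 0.0781), and by 0.45 with quantile scaling (adjusted p = 0.0322), the opposite way. Second probes of both genes gave smaller differences between KO and DEN tumours, 0.56 for H2afz (adjusted p = 0.0691) and 0.59 for H2afv (adjusted p = 0.0781).

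The macroH2A genes H2afy, H2afy2 and H2afy3 code for large H2A variants with an added globular domain. H2afy read 1.35, 1.15, 1.18, 0.51 and 1.13 in KO tumours, 1.01, 0.59, 1.09, 1.07 and 0.64 in DEN tumours, 1.58, 1.45, 1.31 and 1.33 in KO livers and 1.43, 1.40, 1.48 and 1.11 in WT livers, and was called in no comparison. H2afy2 read 0.22, -0.38, 0.67, 0.57 and 1.20 in KO tumours, against 1.07, 1.02, 1.34, 1.08 and 1.25 in DEN tumours. It was 0.70 lower in KO tumours (difference -0.70, adjusted p = 0.0206, and 0.21 with slide as a block), with KO tumour mouse 5 in the range of the DEN tumours. H2afy3 read -1.15, -1.63, -0.06, -1.83 and -0.82 in KO tumours and -2.44, -1.62, -3.19, -2.08 and -1.75 in DEN tumours. These also overlapped, and H2afy3 was 1.12 higher in KO tumours (adjusted p = 0.00855, and 0.0829 with slide as a block). The livers read 0.06 to 0.20 (KO) and 0.31 to 1.02 (WT) for H2afy2, and -1.90 to -1.78 (KO) and -2.46 to -1.60 (WT) for H2afy3.

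**Figure D4:**
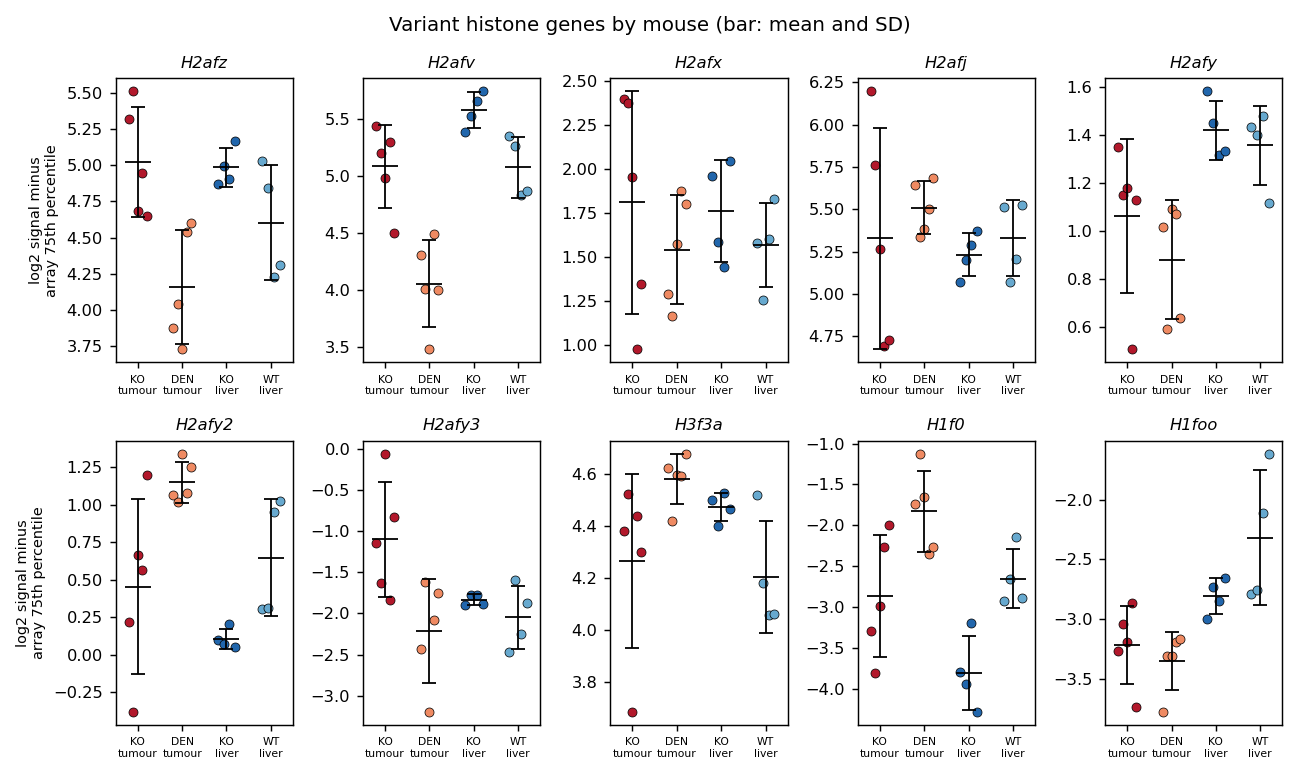
Log2 signal minus the 75th percentile of the array (y axis) of 10 variant histone genes in each mouse (points), by group (x axis), with mean and SD (bars). H2afv is low in DEN tumours, at 3.48 to 4.49, and H2afz reads 3.73 to 4.60 there, in overlap with the WT livers.

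DEN tumours were compared with WT livers to see which histone genes differ in carcinogen-induced tumours with intact Trp53. Of the 60 genes 6 rose and 3 fell, or 10% and 5%. Of all genes 10.5% rose and 10.9% fell, 21.5% in all, so the shares of histone genes were near and below the background. The median was 0.18 over the histone genes and 0.04 over all genes, and 12 of the 60 did not overlap, against 24.0% of all genes. H3 genes made up 4 of the 6 that rose, out of 8 tested (median 0.80), and none of the H2A or H4 genes was called. The slide and scan day of the WT livers held no other group. With slide as a random block 1 gene rose (Hist1h3f) and none fell (the adjusted p of the others reached 0.12 to 0.51), and without WT liver mouse 2 the count that rose was 3.

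Hist2h3c2-ps has a pseudogene name on the array, but its probe matched the RefSeq gene H3c15 and has no position in the array files. It read -2.24, 0.13, 2.15, -0.17 and 0.80 in DEN tumours, against -2.66, -3.75, -2.70 and -2.32 in WT livers. DEN tumour mouse 1 lay next to the livers and the others stood far above, and the gene rose by 2.99 (SE 0.64, adjusted p = 0.00328). Hist1h3f (chr13:23636330-23636389) read -2.03, -1.73, -1.60, -1.63 and -1.47 in DEN tumours, against -4.35, -4.52, -3.36 and -3.11 in WT livers. The DEN tumours were close to each other and above every mouse of the other groups, of which KO tumour mouse 1 came nearest at -2.52. The difference was 2.14 (SE 0.32, adjusted p = 0.000191, and 0.035 with slide as a block). Hist2h3c1, an H3 gene beside Hist2h2aa1 on chromosome 3, read -2.76, -2.13, -0.58, -2.35 and -1.59 in DEN tumours and -3.63, -4.39, -3.23 and -2.93 in WT livers. The groups did not overlap and the difference was 1.66 (SE 0.40, adjusted p = 0.0075).

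Hist1h1c, a linker gene, read 2.51, 3.99, 4.28, 2.42 and 3.33 in DEN tumours, against 2.32, 2.17, 2.0 and 1.98 in WT livers. DEN tumour mice 1 and 4 lay just above the livers, and the difference was 1.19 (SE 0.38, adjusted p = 0.0339). Hist1h3c rose by 1.18 (SE 0.31, adjusted p = 0.0119), and its probe shares a run with that of Hist1h3f. Hist1h2bg, above background on no WT liver array, read 2.21-fold higher in DEN tumours by the same kind of fold (above background on 5 of 7 arrays there, adjusted p = 0.0339). With normexp and quantile scaling Hist1h2bg lost its call (0.17, adjusted p = 0.151).

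Hist1h1e, another linker gene, read -0.27, -0.81, -1.04, -0.25 and -0.85 in DEN tumours and 0.54, 0.51, 0.10 and 0.44 in WT livers. All DEN tumours were lower, and the difference was -1.04 (SE 0.25, adjusted p = 0.00781). H1foo, known as the linker histone of oocytes, read -3.78, -3.31, -3.31, -3.20 and -3.16 in DEN tumours, against -2.79, -2.76, -2.11 and -1.62 in WT livers, without overlap (difference -1.03, SE 0.24, adjusted p = 0.00611). H1f0 read -1.74, -1.13, -1.66, -2.36 and -2.27 in DEN tumours and -2.93, -2.66, -2.14 and -2.89 in WT livers (difference 0.82, adjusted p = 0.113). H3f3b read 3.88, 4.37, 3.79, 4.02 and 3.90 in DEN tumours, against 3.78, 3.54, 3.74 and 3.74 in WT livers. The H3f3b groups just missed overlap (difference 0.29, adjusted p = 0.192), and a second probe of it was 0.88 higher (adjusted p = 0.0125).

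Both kinds of tumour were then compared directly. Of the 60 genes 15 were higher and 20 lower in KO than in DEN tumours, or 25% and 33.3%, against 19.8% and 37.5% of all genes (57.3% in all). Both shares were near the background. The median was 0.05 over the histone genes and -0.33 over all genes, and 17 of the 60 did not overlap, against 31.6% of all genes. H2B genes were lower in 7 of 11 and higher in 1 (median -1.03), whereas H2A genes were higher in 4 of 13 and lower in 2 (0.07). Of the 14 variant genes 4 were higher and 4 lower. With slide as a random block 3 stayed higher (H2afv, Hist3h2a, Hist3h2ba) and 17 lower. Within the scan day shared by both groups, 12 were higher and 11 lower, and with normexp and quantile scaling 19 were higher and 14 lower. These comparisons and those above share tumours or livers, so their values are set side by side only.

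Hist3h2ba had the highest difference. It read -5.44, -4.45, -5.18, -4.69 and -4.99 in DEN tumours, all below the KO tumour mice given above, and differed by 2.03 (SE 0.42, adjusted p = 0.000737). Hist3h2a, the H2A gene of the same chromosome 11 cluster (chr11:58768954-58769013), read 0.72, 0.78, 0.18, 0.85 and 0.93 in KO tumours and -0.75, -0.39, -0.45, -0.12 and 0.00 in DEN tumours. No mouse overlapped, and the difference was 1.04 (SE 0.23, adjusted p = 0.00129, and 0.0268 with slide as a block). Hist1h1b read -4.31, -4.26, -2.58, -2.80 and -3.14 in DEN tumours and was 1.87 higher in KO tumours (SE 0.44, adjusted p = 0.00181, and 0.0595 with slide as a block), with no overlap. Hist1h4m was 1.72 higher in KO tumours (adjusted p = 0.00813, and 0.235 within the shared scan day), its DEN tumours reading -5.80, -5.01, -6.03, -4.13 and -4.47. Hist1h2ag was 1.46 higher (adjusted p = 0.00599, and 0.0866 with slide as a block), its DEN tumours reading 1.80, 2.87, 2.76, 3.19 and 3.36.

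Hist1h2bb, an H2B gene, was the lowest in KO tumours. It read -5.89, -7.06, -5.31, -7.09 and -7.59 in KO tumours, against -4.68, -4.58, -4.43, -4.91 and -4.71 in DEN tumours. The groups did not overlap and the difference was -1.93 (SE 0.40, adjusted p = 0.000761), with 2 of 6 KO tumour arrays above background. With normexp and quantile scaling it was -0.22 (adjusted p = 0.0483), and within the shared scan day -1.03 (adjusted p = 0.118). H2afb2-ps, a pseudogene of the short H2A variants of the testis, read -6.57, -7.31, -6.13, -7.13 and -8.22 in KO tumours and -5.53, -5.28, -5.33, -5.0 and -5.34 in DEN tumours. Its difference was -1.78 (SE 0.44, adjusted p = 0.00275), and 2 of 6 KO tumour arrays were above background. Hist1h3f read -2.52, -3.75, -4.16, -3.52 and -3.11 in KO tumours and was 1.72 lower there (difference -1.72, SE 0.30, adjusted p = 0.000171, and 0.00554 with slide as a block). Hist3h2bb-ps read -6.63, -6.54, -7.22, -6.75 and -7.88 in KO tumours, against -6.13, -5.27, -4.79, -5.41 and -5.26 in DEN tumours (difference -1.63, adjusted p = 0.000203). With normexp and quantile scaling the calls of H2afb2-ps (-0.26, adjusted p = 0.0578) and Hist3h2bb-ps (-0.13, adjusted p = 0.142) were lost. Hist3h2bb-ps was above background on 1 of 6 KO tumour arrays and 3 of 7 DEN tumour arrays. The H4 gene Hist1h4h was also 1.63 lower (difference -1.63, adjusted p = 0.000293), without overlap (adjusted p = 0.0778 within the shared scan day).

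Among the variant genes, H3f3b was 0.41 higher in KO than in DEN tumours (adjusted p = 0.0221, and 0.125 with slide as a block), with DEN tumour mouse 2 at the level of the KO tumours. H1f0 was 1.04 lower in KO tumours (difference -1.04, adjusted p = 0.0148, and 0.285 with slide as a block), with overlap. By its brightest probe, H3f3a read 4.62, 4.42, 4.60, 4.59 and 4.67 in DEN tumours and was not called (difference -0.31, adjusted p = 0.11). Its second probe was called lower in KO tumours, at -0.61 (adjusted p = 0.00548). With WT livers as the reference, the second probe was also called higher in DEN tumours, by 0.57 (adjusted p = 0.0295). The brightest probe gave 0.38 there, without a call (adjusted p = 0.137).

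Of 5 genes known mainly from germ cells (Hist1h1t, Hist1h2ba, Hist1h2aa, H1fnt and H1foo), 4 were lower in KO than in DEN tumours and none higher, where 37.5% of all genes were lower. The calls of Hist1h1t and H1fnt were lost with scan day as a block (adjusted p = 0.345 for Hist1h1t and 0.296 for H1fnt). Hist1h2aa, an H2A gene that shares its promoter with Hist1h2ba, averaged -3.56 ± 0.52 in KO tumours and -2.28 ± 0.13 in DEN tumours (SD, n = 5 each), without overlap (difference -1.28, adjusted p = 0.000532). H1fnt read -6.24, -6.49, -5.55, -6.70 and -7.88 in KO tumours, against -5.86, -5.55, -5.15, -5.16 and -5.01 in DEN tumours. It overlapped between the groups and was above background on 3 of 6 and 4 of 7 arrays (difference -1.23, adjusted p = 0.0134). The H1fnt difference was -0.04 with normexp and quantile scaling (adjusted p = 0.682), -0.45 with scan day as a block, and -0.75 without the brightest slide (adjusted p = 0.0978).

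KO livers were set against WT livers to see what deletion of Trp53 changes without a tumour, on slides that cannot be told apart from the groups. No histone gene was called higher and 2 were called lower, or 0% and 3.33%, against 1.82% and 6.63% of all genes (8.45% in all). The median was -0.003 over the histone genes and -0.05 over all genes, and 13 of 60 did not overlap, against 28.0% of all genes. Hist1h2bp, an H2B gene, read -6.34, -6.44, -6.35 and -6.49 in KO livers, against -4.92, -5.42, -4.71 and -4.68 in WT livers. It was above background on 1 of the WT liver arrays and on no KO liver array, so that most of its values give no measured level (difference -1.47, adjusted p = 0.00497). Hist1h3i read -5.02, -5.17, -5.15 and -4.95 in KO livers and -3.86, -4.48, -4.31 and -4.24 in WT livers. It was above background on 3 of the WT liver arrays and on no KO liver array. By these undetected signals it read 1.80-fold lower in KO livers (adjusted p = 0.0372). Neither call held with slide as a block, and leaving out any of the 4 KO livers, or WT liver mouse 1, 3 or 4, left 1 call.

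The tumour effect in KO mice (KO tumour minus KO liver) was set against that in the DEN model (DEN tumour minus WT liver) in 1 test of the difference. It was higher for 3 genes and lower for 7, or 5% and 11.7%, against 12.6% and 18.2% of all genes (30.9% in all), with a median of -0.04 over the histone genes and -0.25 over all genes. The 3 were Hist1h1b (1.84, SE 0.66, adjusted p = 0.043), Hist3h2a (1.44, SE 0.35, adjusted p = 0.00581) and H3f3b (0.76, SE 0.22, adjusted p = 0.0146). The other H3f3b probes were not called (0.15, adjusted p = 0.77, and -0.02, adjusted p = 0.974). For Hist3h2a the KO livers read -0.82, -0.74, -0.69 and -0.74 and the WT livers 0.25, 0.03, -0.62 and -1.04. Among the 7, Hist2h2aa1 differed by -2.31 (SE 0.57, adjusted p = 0.0065), Hist1h3f by -2.23 (SE 0.45, adjusted p = 0.00185), Hist1h4i by -2.08 (SE 0.43, adjusted p = 0.00224) and Hist1h3c by -1.28 (SE 0.44, adjusted p = 0.0358). The other 3 were the H2B genes Hist1h2bc, Hist1h2be and Hist1h2bm. Other probes of Hist1h4i differed the opposite way without a call (0.62, adjusted p = 0.387, and 0.31, adjusted p = 0.674). H3f3a was not called by its brightest probe (-0.58, adjusted p = 0.0806), but its second probe was called lower (-1.01, adjusted p = 0.00691). The second H2afj probe was called higher (1.05, adjusted p = 0.0377), unlike the brightest one (-0.08, adjusted p = 0.883). Hist2h2aa1 read 2.89, 5.08, 5.75, 4.48 and 5.30 in DEN tumours and 4.82, 4.39, 4.11 and 4.47 in WT livers, with DEN tumour mouse 1 alone below the WT livers and near the KO tumours. Hist1h3c read 1.16, 0.32, 0.23, -0.43 and -0.19 in KO tumours and 1.48, 1.42, 1.37, 1.62 and 1.73 in DEN tumours, against 0.27, 0.26, 0.56 and 0.19 in KO livers and -0.17, -0.32, 0.95 and 0.92 in WT livers. None of the 10 passed with slide as a random block, where the adjusted p of Hist1h4i was 0.0736 and that of Hist1h3f 0.0954. Without KO liver mouse 2, 3 or 4, or WT liver mouse 2, the 7 became 4, 4, 3 and 3, and without WT liver mouse 2 the 3 became 5.

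Genes of DNA replication, which are active in the same phase as the replication-linked histone genes, were set beside them. Of 17 tested genes of S phase, 15 were higher in KO tumours than KO livers and none lower, with a median of 2.08, where 21.5% of all genes were higher and 29.6% lower. In DEN tumours against WT livers 3 were higher and none lower (median 0.22, with 10.5% and 10.9% of all genes), and in KO against DEN tumours 15 were higher and none lower (median 1.52, with 19.8% and 37.5% of all genes). Mcm2, a subunit of the replicative helicase, rose by 3.43 in KO tumours against KO livers and by 1.58 in DEN tumours against WT livers. Mki67, a marker of dividing cells, rose by 4.73 in KO tumours (against KO livers) and differed by 1.11 in DEN tumours (against WT livers, adjusted p = 0.185). WT liver mouse 4 read 0.51 for Mki67, against -3.04, -2.52 and -2.12 in the other WT livers and -1.82 to 0.27 in DEN tumours. That mouse was also the highest WT liver for Hist1h1b (-2.24) and Hist1h2ag (3.65). Its weight in the S phase list was not tested. By their medians, the replication-linked histone genes stood at 0.15 and 0.20 in the same comparisons with liver.

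Histone chaperones carry histones to chromatin. Of 21 tested, 8 were higher in KO tumours than KO livers and none lower (median 0.26, with 21.5% and 29.6% of all genes), and 1 was higher and 3 lower in DEN tumours than in WT livers (0.01, with 10.5% and 10.9%). Between KO and DEN tumours 11 were higher and 2 lower (0.58, with 19.8% and 37.5%). Chaf1a, a subunit of the factor that places H3 and H4 on new DNA, was 2.86 higher in KO tumours than KO livers, Asf1b, an H3 and H4 chaperone, 2.49 higher, and Tonsl, which binds newly placed H4, 2.26 higher. A further list held genes of histone transcription and 3′ end processing. Of 13 tested, 1 rose and 1 fell in KO tumours against KO livers (median 0.12), where 51.2% of all genes were called either way, and 2 rose and 1 fell in DEN tumours against WT livers (-0.19, with 21.5% of all genes either way). Eri1, a nuclease that trims histone mRNA, rose by 0.88 in KO tumours (adjusted p = 0.00186), and Lsm10, part of the U7 particle that cuts it, fell by 1.20 (difference -1.20, adjusted p = 0.000279). Slbp differed by 0.28 in KO tumours (adjusted p = 0.283) and rose by 0.80 in DEN tumours (adjusted p = 0.0135). Npat, the activator of the clusters, was too dim to be tested.

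**Figure D5:**
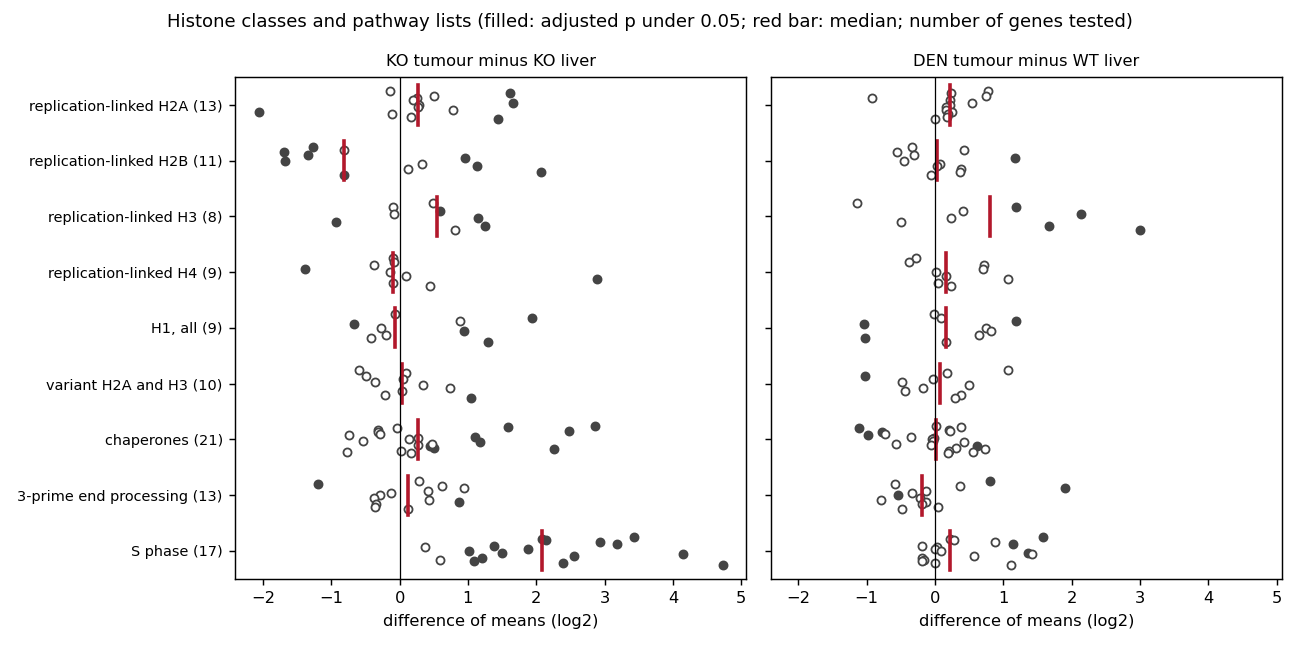
Differences on the log2 scale (x axis) of the genes (points) of each histone class and gene list (y axis), in KO tumours minus KO livers and DEN tumours minus WT livers, with medians (bars). Filled points passed an adjusted p of 0.05. The list of S phase genes lies at 2.08 in KO tumours against KO livers, where the replication-linked H2B genes lie at -0.81.

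Markers of other cell types moved with the groups, and their part in the histone values was not tested. All 8 hepatocyte markers were lower in KO tumours than in KO livers, and their signals, divided by the array's 75th percentile and summed, ranged over 386 to 821 in KO tumours, 1426 to 2162 in DEN tumours, 2824 to 3312 for KO livers and 2314 to 2878 for WT livers. Of 7 bile duct markers 6 were higher in KO tumours than KO livers (sums of 45.4 to 241 for KO tumours, 7.08 to 34.2 for DEN tumours, 1.80 to 2.86 for KO livers and 1.64 to 3.14 for WT livers). Of 9 leukocyte markers 5 were higher (24.6 to 78.8, 17.5 to 33.3, 17.7 to 19.1 and 12.3 to 19.3, groups as before), and of 5 stellate and matrix markers 4 (51.1 to 141, 2.94 to 63.1, 5.76 to 7.19 and 3.21 to 8.32). Of 4 erythroid markers tested 3 were lower in KO tumours than KO livers, 3 were higher in DEN tumours against WT livers, and 4 were lower in KO than in DEN tumours. The linear scaled signals of these 4, summed per mouse, were 3.84 to 46.1 for KO tumours, 146 to 518 for DEN tumours, 44.5 to 312 for KO livers and 32.6 to 80.9 for WT livers.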

How the data were processed

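Total RNA was labelled with Cy3 (Quick Amp kit, per the labels' protocols) and hybridised to 21 one-colour Agilent 4x44K v2 arrays. Per the submitters' processing notes the arrays were read with Agilent Feature Extraction 10.7.3.1. Each deposited scanner file holds a processed intensity for every spot, background-subtracted per the file headers, and marks for spots above background. The authors' deposited table is on a log2 scale and followed, array by array, the log2 processed intensity after subtraction of the 75th percentile and centring of each probe (correlation of at least 0.99999 with the own array).

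Outlier and control spots were left out, spots of a probe averaged as log2 intensity, and the 75th percentile of each array subtracted. Mouse identity was read from the whole number that precedes T in tumour titles, and tumours of a mouse were averaged. A limma model (version 3.58.1, R 4.3.3, data.table version 1.17.8) with 4 group means was fitted to 23602 genes of 18 mice, with probes well above background on at least 4 arrays. Tests were moderated and two-sided, with Benjamini-Hochberg adjustment within each comparison over all genes tested and a threshold of 0.05. On simulated data for KO tumour against KO liver (23340 genes), 20 of 100 genes changed by 1 and 68 of 100 changed by 2 (log2) were recovered, with 3 false calls. The simulated noise was independent and held no slide effect, and far fewer genes were changed than were called in the data. These rates therefore do not describe the real comparison. Sequences, lists and figures were handled with Python 3.11.15, pandas 2.3.3, scipy 1.17.1 and matplotlib 3.10.9. Of the 64 genes 62 matched a RefSeq name in a table of build GRCm38.p6, used for names and promoters only.

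Named were the variant genes and, per comparison, the 4 highest and 4 lowest called genes, with values per mouse in the groups compared, or ranges. Hist2h2aa2, Hist1h2ah, Hist1h2ab and Hist1h2aa, and the promoter and probe stretches, were picked for display after their values were seen. The members and the lists were chosen with earlier results of these data known. Alternatives were normexp background (offset 50) with quantile scaling, median scaling, other filters on dim probes, the mean of all probes of a gene, the authors' values, arrays as samples, slide or scan day as a block, and each mouse left out. Sums of erythroid markers cover those tested, and 1 item is not reported here.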

Additional observations from a re-analysis of the deposited data

Results flagged for a closer look

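In 7 of 132 groups of 4 or 5 mice, 1 mouse stood apart from the rest of its group by Dixon's test, and chance alone marks about 1 group in 20. Hist1h4i read 1.36 in KO tumour mouse 4 against -0.19 to 0.22 in the other KO tumours, and H2afy 0.51 in the same mouse against 1.13 to 1.35. Hist3h2a read 0.18 in KO tumour mouse 3 against 0.72 to 0.93 in the others, and H3f3a 3.69 in the same mouse against 4.30 to 4.52. H1foo read -3.78 in DEN tumour mouse 1 against -3.31 to -3.16. Hist1h1b read -3.27 in KO liver mouse 2 against -3.57 to -3.52, and H1fnt -6.66 in KO liver mouse 1 against -6.30 to -6.24, with no KO liver array of H1fnt above background.

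The tumour effect in KO mice differed from that in the DEN model for 9 of the histone genes described mouse by mouse (limma, difference of the effects). It was higher for Hist1h1b (1.84), Hist3h2a (1.44) and H3f3b (0.76). It was lower for Hist2h2aa1 (-2.31), Hist1h3f (-2.23), Hist1h4i (-2.08), Hist1h3c (-1.28), Hist1h2bm (-1.21) and Hist1h2bc (-1.13). Other probes of H3f3b gave 0.15 and -0.02, and those of Hist1h4i 0.62 and 0.31, without a call. None of the 9 genes passed with slide as a random block.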

How the results depend on the processing

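No paired analysis was possible because no label links a tumour to a liver of the same mouse. Counts of calls are listed where they moved by more than 1.5 times, and smaller shifts occurred too, such as 10 higher and 8 lower in KO tumours against KO livers and 13 higher and 15 lower in KO against DEN tumours with the filter at 11 arrays. With normexp background and quantile scaling 23 genes were higher in KO tumours than KO livers, 14 lower in KO than in DEN tumours, none lower in KO than in WT livers, and 7 higher in the difference of the tumour effects. With slide as a random block (each array its own sample, chosen after the data were seen, since 2 DEN mice span 2 slides) the counts were 4 higher in KO tumours than KO livers and 6 lower, 1 and 0 for DEN tumours against WT livers, 3 higher in KO than DEN tumours, 0 lower in KO than WT livers, and 0 and 0 in the difference. Lower in KO than DEN tumours were 11 with scan day as a block and 11 within the shared scan day, both added later. Without the KO tumours of the brightest slide (added later) 21 were higher in KO tumours than KO livers, 6 higher and 4 lower in the difference. With no filter on dim probes 5 were lower in DEN tumours than in WT livers and 1 lower in KO than in WT livers. For KO livers against WT livers 1 was lower with the filter at 11 arrays and with each array as a sample, and 2 higher and 5 lower with only those groups in the fit. Planned slide and day blocks with mice as samples were not run. Calls with the authors' values were those of the text in all 5 comparisons. Reversed were H2afv (0.45) and H3f3a (0.65) in KO tumours against KO livers, with normexp and quantile scaling.

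With each mouse left out in turn, the counts ranged from 8 to 14 higher and 7 to 9 lower (KO tumours against KO livers), 3 to 6 and 3 to 4 (DEN tumours against WT livers), 10 to 16 and 19 to 21 (KO against DEN tumours), 0 to 1 and 1 to 3 (KO against WT livers), and 2 to 5 and 3 to 10 (difference of the tumour effects). Genes above background on no array of a group, such as Hist1h4m in KO livers, give folds that rest on undetected signals.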
